A study of Mus musculus with 16 samples.

Results

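The cytosolic ribosomal protein genes were followed through mouse liver as 1 family. A gene belonged to it when the deposited table listed it as protein-coding, placed it in the KEGG ribosome pathway and gave it a symbol that starts with Rpl or Rps, a rule that reads no expression value. The genes were thus chosen by annotation and symbol, but the family was taken up with its levels in these libraries already known, so its counts are given as a description. The rule found 83 of the 57010 genes listed, 32 for the small and 51 for the large ribosomal subunit. The table's own annotation left out Rpl27 and Rps12, and genes such as Fau, Rack1 and Gm11808 were left out by name. Liver RNA came from 16 wild-type male C57BL/6J mice described as young adults, 4 in each of 4 groups, and all 16 were separate animals. The Cd group received CdCl2 at 1.25 mg/kg by daily intraperitoneal injection over the last 7 days. The Se group ate a diet with SeMet (selenomethionine) at 2 ppm for 3 months, the Cd+Se group had both, and the control group had neither. What was injected into mice without Cd is not given in the sources used here.

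Each cytosolic ribosome holds 1 copy of most of these proteins, so cells make them in near-equal numbers and destroy what is left over. Their mRNAs are among the most abundant in a growing or secreting cell. Most of them begin with a C followed by a run of pyrimidines, the 5′ terminal oligopyrimidine (TOP) motif, through which LARP1 and mTORC1 set how much of the mRNA is translated. The level of the mRNA and the rate at which it is translated are therefore separate quantities, and only the level was measured here.

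The starts of the mRNAs are shown because this motif is known to be frequent in the family. RefSeq promoter sequences (GRCm38.p6) matched 62 of the 83 genes, with 74 starts. A run of C followed by at least 4 letters that are each C or T, on the sense strand, began within 2 bases of the start in 23 of these 74 (31.1%) and in 8.96% of 32851 starts of all genes. At the start base itself the shares were 18.9% and 2.51%. Each window below runs from 10 bases before the start to 20 bases from it, and capitals mark the run where it was found. The first 5 hold a run, and the last 4 do not by this definition.
Rps27, chr3:90213629-90213658, minus strand: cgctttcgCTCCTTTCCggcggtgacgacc
Rps6, chr4:86857348-86857377, minus strand: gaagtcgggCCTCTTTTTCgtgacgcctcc
Rpl13a, chr7:45128726-45128755, minus strand: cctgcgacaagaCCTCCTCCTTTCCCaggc
Rpl38, chr11:114668570-114668599, plus strand: aagcctcgttCTTTCCCCgttctcttcggt
Rpl12, chr2:32961702-32961731, plus strand: agcaggatccgtCTTTTCggctttcggctc
Rpl22l1, chr3:28805498-28805527, plus strand: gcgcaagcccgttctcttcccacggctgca
Rps16, chr7:28350679-28350708, plus strand: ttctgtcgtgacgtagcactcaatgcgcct
Rps3, chr7:99483690-99483719, minus strand: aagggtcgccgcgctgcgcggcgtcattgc
Rplp0, chr5:115559457-115559486, plus strand: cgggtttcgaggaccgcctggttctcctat
The windows follow annotated starts, which can lie some bases from the start used in liver, so an absent run says only that these letters are not there.

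The family's levels spanned about 2 orders of magnitude per unit length. Values are TPM, a relative transcript abundance that is corrected for transcript length and sums to the same total in each library. The highest means over the 16 libraries were 1315 TPM for Rps27, 1064 for Rpl23a and 1021 for Rps15. Rps27 carries a zinc finger on the small subunit, Rpl23a lies beside the tunnel exit, and Rps15 is in the head of the small subunit. Of the genes that reached a mean of 1 TPM, the lowest were Rpl12 (11.7 TPM), Rpl5 (23.0 TPM) and Rps27rt (38.0 TPM). The first 2 of these have near-identical copies elsewhere in the genome that carried most of the reads assigned to either, as set out further on. The order at the high end depends on copies too. With its copies added, Rps28 had means of 1072 TPM in the control, 1252 in the Cd, 1251 in the Cd+Se and 1119 TPM in the Se group. Each was above that of Rps15. Rpl3l, the striated muscle form of Rpl3, reached no more than 0.18 TPM in any library. Rpl10l and Rpl39l, known from testis, were listed at 0 in all 16. The other 80 genes entered every test.

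Summed over its 83 genes, the family took 3.03% ± 0.30 of all TPM in control mice against 3.70% ± 0.73 in Cd mice (SD, n = 4 each). The control libraries held 33786, 28114, 31965 and 27471 TPM, and the Cd libraries 45414, 40447, 29434 and 32695 TPM. Those of the Cd+Se group held 39950, 34812, 32662 and 38163 TPM, and those of the Se group 29601, 41369, 28838 and 35036 TPM. Every group overlapped the control group. Spread within the groups was shared by the whole family, since 73 of the 80 tested genes were highest in Cd mouse 1 and 76 were highest in Se mouse 40 among the 4 mice of that group. Transcripts of the mitochondrial genome ran the other way in the Cd group: they took 12.8% of TPM in Cd mouse 2 and 22.2% in Cd mouse 5, the extremes of that group, against 16.4% to 17.3% in the control group. They also did so in the Se group, with 13.6% in Se mouse 40 and 17.0% in Se mouse 41, where the family was highest and lowest. In Cd mouse 5, with the largest mitochondrial share, the family was at the lowest of its group. The part of this in the results was not tested, and the shares of the family and the differences of the genes at the low end are given with and without it.

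**Figure D1:**
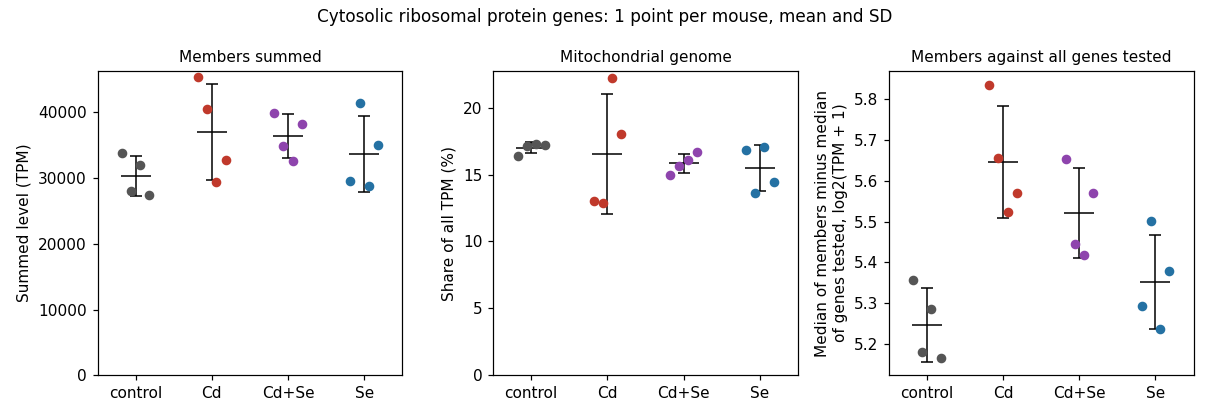
The left panel plots the summed TPM of the 83 genes, the middle panel the percent of TPM from the mitochondrial genome, and the right panel the median log2(TPM + 1) of the 80 tested genes minus that of the 11766 genes tested; points are mice, and bars are the mean and SD of 4. Summed levels overlap between groups, whereas in the right panel the Cd mice lie between 5.52 and 5.84 and the control mice between 5.17 and 5.36.

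Cd against control asks how the family differed between mice given Cd and control mice, both without added selenium. What was injected into the control mice is not known, so the metal and the injections cannot be told apart. On the deposited scale 25 of the 80 tested genes were higher in the Cd group and 0 were lower (limma on log2(TPM + 1), Benjamini-Hochberg adjusted p under 0.05), where 5.82% of all 11766 genes tested were called higher and 24.9% lower. The genes called were spread over both subunits, 10 of 32 in the small and 15 of 48 in the large. The median difference was 0.28 on the log2 scale, against -0.17 for all genes tested. TPM are shares, so the scale decides how much of this is a gain: with each library centred on its median gene 65 were called higher and 0 lower, where 19.2% and 15.3% of all genes were called, and after quantile normalization 37 higher and 2 lower, where these were 14.5% and 19.3%. Leaving out control mouse 28 or 30 left 13 or 14 calls, and leaving out Cd mouse 1 or 2 left 15, while 31 were called without Cd mouse 5. Values of all 4 Cd mice lay above all 4 control values for 18 genes and below them for 0, where this held for 6.44% and 27.8% of all genes.

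Rps20, a protein of the small-subunit head, had the largest difference. It was at 101, 70.7, 81.8 and 78.2 TPM in the control group and 244, 192, 180 and 154 TPM in the Cd group. The groups did not overlap, and the difference was 1.20 ± 0.17 on the log2 scale (SE, limma adjusted p = 0.000328). In the Cd+Se group it was at 160, 119, 114 and 147 TPM, above the control mice and overlapping the lowest Cd mouse. With the copies set out further on added, the ranges were 158 to 213 TPM in the control group and 229 to 362 TPM in the Cd group. The Cd+Se group was then at 203 to 287 TPM and overlapped both.

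Rpl22l1, the paralogue that can take the place of Rpl22 on the large subunit, was at 215, 204, 158 and 137 TPM in the Cd group. In the control group 3 mice held 68.2, 72.6 and 62.5 TPM, but control mouse 27 held 172 TPM, inside the Cd range. The difference was 1.03 ± 0.27 (adjusted p = 0.0105, limma). Rpl22 itself did not pass, at 357 ± 16.5 TPM in the control and 453 ± 78 TPM in the Cd group (SD, n = 4 each; adjusted p = 0.0897, limma), although its groups did not overlap.

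Rpl31, a protein at the rim of the tunnel exit, followed with 174, 103, 124 and 98.2 TPM in the control and 312, 241, 203 and 184 TPM in the Cd group. Its groups did not overlap either (0.92 ± 0.20, adjusted p = 0.00351, limma). Rpl12, at the base of the stalk that recruits elongation factors, was far lower in level, at 5.35 to 9.21 TPM in the control and 10.8 to 18.3 TPM in the Cd group (0.86 ± 0.25, adjusted p = 0.0161, limma), a call lost without control mouse 28. Rps16, near the decoding site, was at 128 to 189 TPM in the control and 232 to 349 TPM in the Cd group (0.69 ± 0.17, adjusted p = 0.0066, limma).

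Genes known for roles outside the ribosome split. Rpl13a, also a part of the complex that silences inflammatory mRNAs, rose from 541 ± 106 to 856 ± 184 TPM (0.66 ± 0.18, adjusted p = 0.0116, limma). Rps27l, the p53-responsive paralogue of Rps27, went from 457 to 500 TPM in the control mice to between 596 and 744 TPM in the Cd mice (0.45 ± 0.12, adjusted p = 0.00881, limma). Rps27 did not pass, at 1143 ± 57 against 1357 ± 282 TPM. Rpl11, which with Rpl5 binds MDM2 when ribosome assembly is disturbed, was higher by 0.50 ± 0.16 (adjusted p = 0.0235, limma). The call of Rpl11 was lost with no filter on low values and without control mouse 28 or 30 or Cd mouse 1 or 2, with adjusted p up to 0.0668 by limma. Rpl5 did not pass, at 20.1 ± 2.2 against 22.8 ± 5.4 TPM. Nor did Rpsa, also known as a laminin receptor (234 ± 36 against 320 ± 64 TPM, adjusted p = 0.0556, limma), Rps6, the mTORC1-S6K substrate (456 ± 23 against 482 ± 132 TPM), or Rps19, the gene most often altered in Diamond-Blackfan anaemia (180 ± 19 against 219 ± 44 TPM).

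At the other end the difference was below 0 for 11 of the 80 genes, none past the test, and 5 of these stood lowest. Rps3, at the mRNA entry of the small subunit, was at 232, 183, 205 and 158 TPM in the control and 228, 137, 83.1 and 137 TPM in the Cd group (-0.48 ± 0.22, adjusted p = 0.112, limma). Its difference was -0.24 without Cd mouse 5, and -0.73 without Cd mouse 1, where it passed (adjusted p = 0.00977, limma), as it did after quantile normalization. Rpl3, near the peptidyl transferase centre, differed by -0.33 ± 0.19, and Rplp0, the base of the stalk, by -0.24 ± 0.15. Rpl9 differed by -0.20 ± 0.18 and Rps4x, the X-linked small-subunit gene, by -0.19 ± 0.17. Without Cd mouse 5 these differences were -0.17 for Rpl3, -0.13 for Rplp0, -0.021 for Rpl9 and -0.040 for Rps4x. For Rpl9 and Rps4x the sign turned with median centring, to 0.018 and 0.029.

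**Figure D2:**
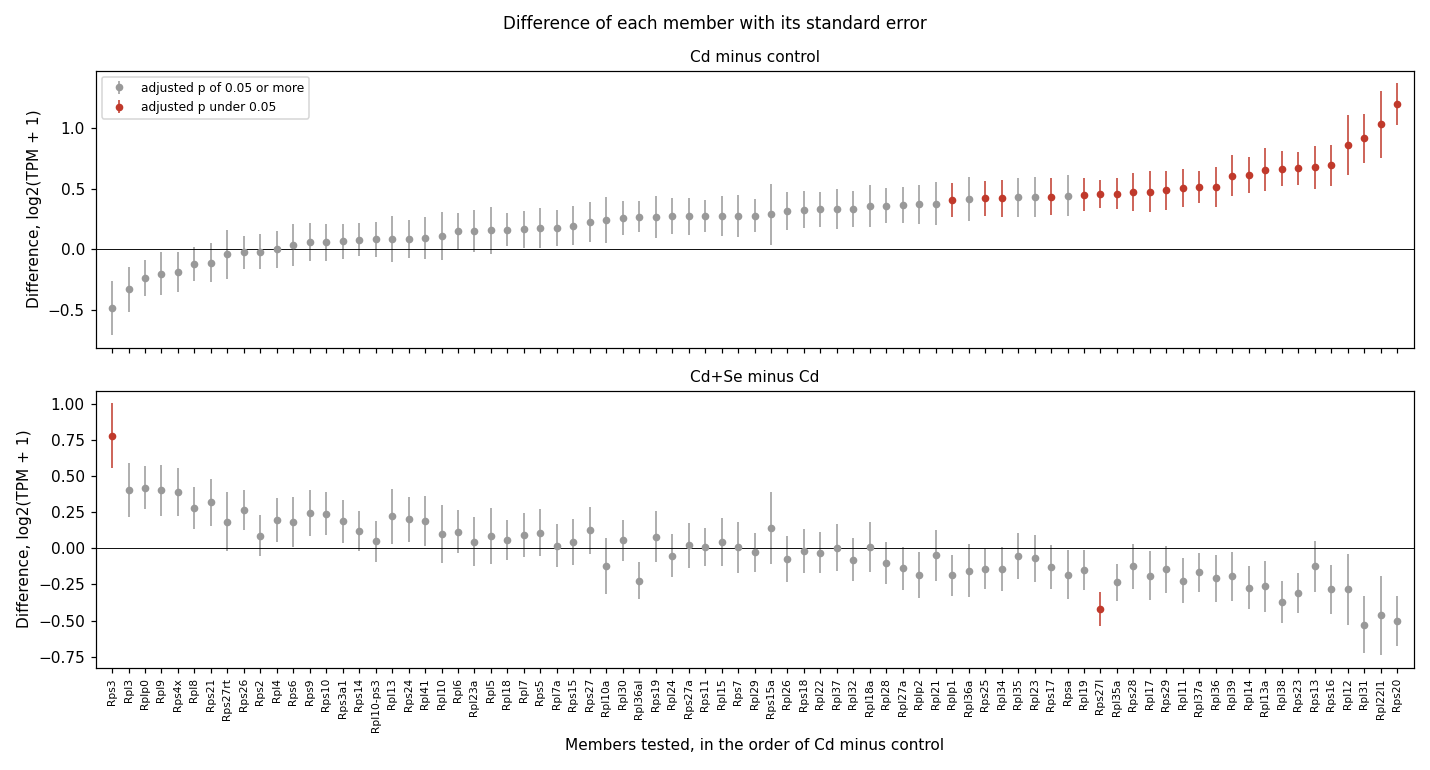
Each point is 1 of 79 of the 80 tested genes, with its standard error, as a difference in log2(TPM + 1): Cd minus control above and Cd+Se minus Cd below, in the same order of genes; red marks an adjusted p under 0.05. The 24 red points above lie between 0.41 and 1.20, and below there are 2, Rps3 at 0.78 and Rps27l at -0.42. Both panels use the same Cd mice.

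**Figure D3:**
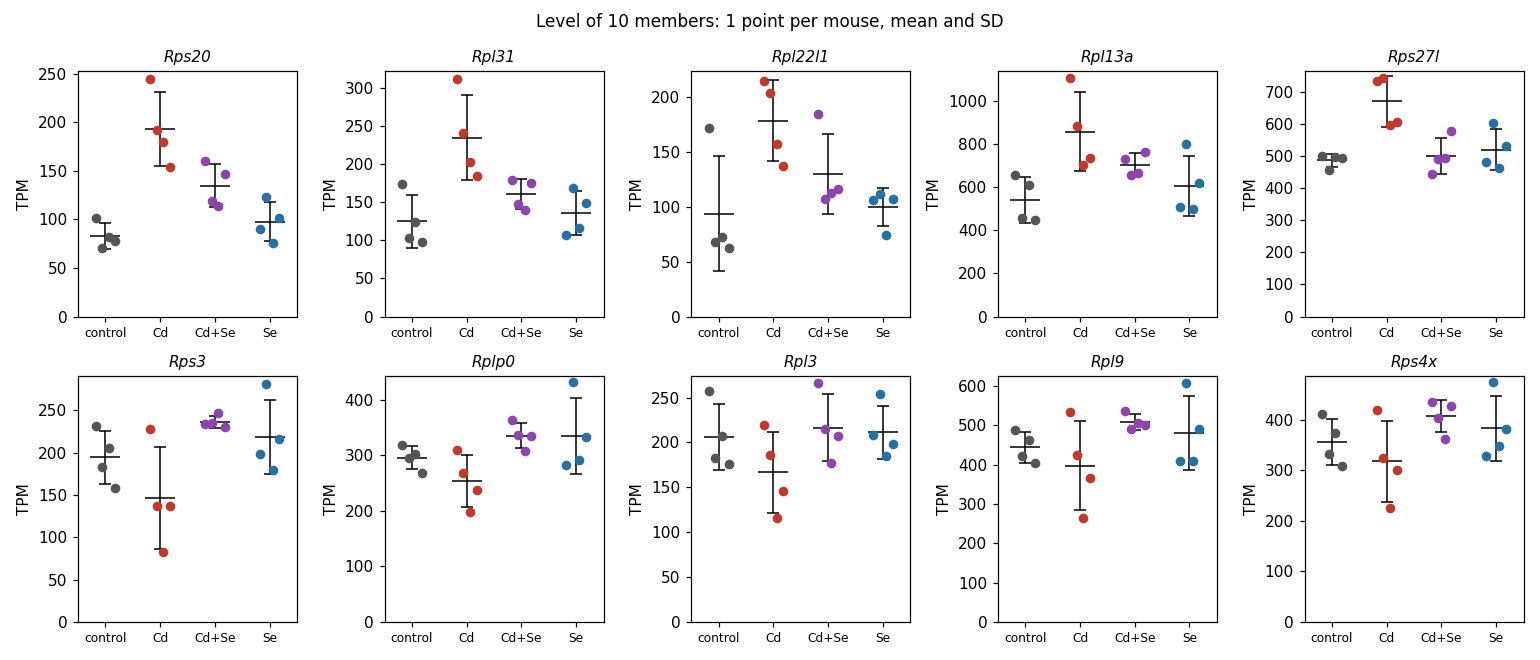
TPM of 10 genes in each mouse, with the mean and SD of 4 mice per group, on axes that start at 0. The top row shows genes called higher in the Cd group and the bottom row the 5 genes with the lowest difference, whose control and Cd ranges overlap.

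How the genes moved against each other does not depend on the total given to the family. Each gene was therefore also expressed as a share of the family's summed TPM, a scale on which a larger share of some genes must lower that of others. On it, 16 of the 80 genes had a larger share in the Cd group and 14 a smaller one. Rescaled in the same way, 2.75% of all genes tested were called higher and 51.0% lower, since the family's total is larger in the Cd group. Without Cd mouse 5 the counts were 12 and 10, and all of these were among the 16 and the 14.

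The shares that fell were those of Rps3, Rpl3, Rplp0, Rpl9, Rps4x, Rpl4, Rpl8, Rps2, Rps3a1, Rps6, Rps9, Rps10, Rps21 and Rps26. Rps3 took 0.686%, 0.650%, 0.642% and 0.575% of the family in the control mice and 0.502%, 0.338%, 0.282% and 0.420% in the Cd mice. No Cd mouse reached the lowest control mouse (-0.75 ± 0.14 on the log2 scale, adjusted p = 0.000508, limma). Rplp0 was tighter, at 0.939% to 1.05% in the control and 0.664% to 0.724% in the Cd group (-0.51 ± 0.08, adjusted p = 9.07e-05, limma).

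Rpl3 and Rps4x also lay apart, at 0.642% to 0.762% against 0.393% to 0.483% for Rpl3 and 1.12% to 1.22% against 0.769% to 0.923% for Rps4x. Among the shares that rose, Rps20 went from 0.251% to 0.300% in the control to 0.470% to 0.611% in the Cd group (0.93 ± 0.10, adjusted p = 1.46e-05, limma). Rpl38, known for its part in the translation of Hox mRNAs, went from 1.16% to 1.35% to between 1.61% and 1.79% (0.39 ± 0.08, adjusted p = 0.00115, limma). The share of Rps27l did not pass (0.18 ± 0.11, adjusted p = 0.174, limma). Summed small-subunit TPM were 0.821 to 0.852 of summed large-subunit TPM in the control mice and 0.781 to 0.818 in the Cd mice, with 0.841 to 0.857 in the Cd+Se mice.

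**Figure D4:**
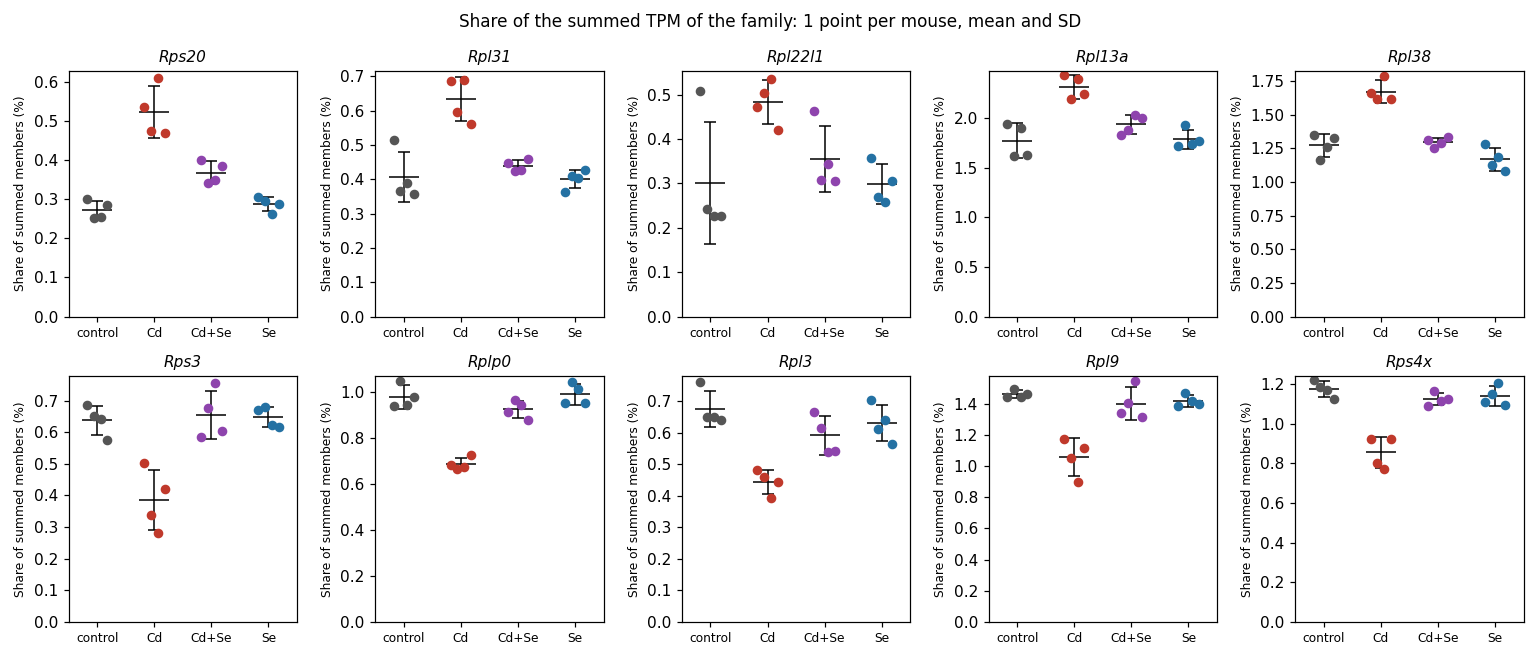
Percent of the family's summed TPM taken by 10 genes in each mouse, with the mean and SD of 4 mice per group, on axes that start at 0. In the bottom row the Cd mice lie below the control mice for all 5 genes, and in the top row they lie above them for all but Rpl22l1, where control mouse 27 is at 0.508%.

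Many ribosomal protein genes have processed copies in the genome, made by reverse transcription of their mRNA, and reads from either can be assigned to the other. A search of GENCODE M21 transcripts found 397 other genes that matched a member at 95% identity or more over at least 50% of their length. Of these, 32 had a mean of at least 5 TPM and 14 of at least 100 TPM, and 12 members had copies that together exceeded the member itself. Gm10275, identical to Rpl12 over the aligned part, was at 495 TPM against 11.7 TPM for Rpl12, and Gm15500 was at 352 TPM against 23.0 TPM for Rpl5. How reads that fit both were divided is not stated, so the members' own values are uncertain wherever copies are high. Members were not searched against each other. Members that by their names may be copies, such as Rpl10-ps3 and Rps27rt, therefore count as genes of the family and were not added to others. Rpl10-ps3 was at 569 to 737 TPM in the control group.

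Adding the TPM of the copies to their members left 20 genes higher and 0 lower in Cd against control, where 5.73% of all genes were called higher and 25.1% lower. Of the 25 calls, 18 remained, 7 were lost and 2 were gained. The lost calls included Rpl12 (0.48 ± 0.19, adjusted p = 0.067, limma), Rpl14, Rps13 and Rps29. Rps20 fell back from 1.20 to 0.60 ± 0.19 (adjusted p = 0.0273, limma), Rpl31 from 0.92 to 0.53 and Rps16 from 0.69 to 0.47, and all 3 still passed. Rpl28 went the other way, from 0.36 alone to 0.93 ± 0.16 with its copies (adjusted p = 0.000818, limma).

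The copies did not all move with their member. Rpl28-ps1 was at 171 to 261 TPM in the control and 388 to 689 TPM in the Cd group (1.24 ± 0.18, adjusted p = 0.000328, limma). Rpl14-ps1 moved opposite to Rpl14, at 39.5 to 76.2 TPM in the control and 4.57 to 23.5 TPM in the Cd group. Rps13-ps1 likewise lay at 73.1 to 88.7 TPM in the control group and 0 to 33.5 TPM in the Cd group, while Rps13 was called higher. Rps13-ps2, another copy of Rps13, was at 44.4 to 72.7 TPM in the control and 73.2 to 92.3 TPM in the Cd group (0.48 ± 0.26, adjusted p = 0.169, limma). Genes called alone that had copies under 5 TPM in sum numbered 11 of 50, against 14 of 30 where copies reached 5 TPM.

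With copies added, the family shares in Cd against control gave 13 genes with a larger share and 15 with a smaller one, where 2.66% and 50.9% of all genes were called on that scale. Of the earlier calls 11 and 13 remained. Larger shares that held in all 3 versions, with copies, without Cd mouse 5 and as deposited, were those of Rpl13a, Rpl22l1, Rpl31, Rpl38, Rpl39, Rps16 and Rps20. Smaller shares that did so were those of Rpl3, Rpl4, Rpl8, Rpl9, Rplp0, Rps2, Rps21, Rps26, Rps3 and Rps4x.

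**Figure D5:**
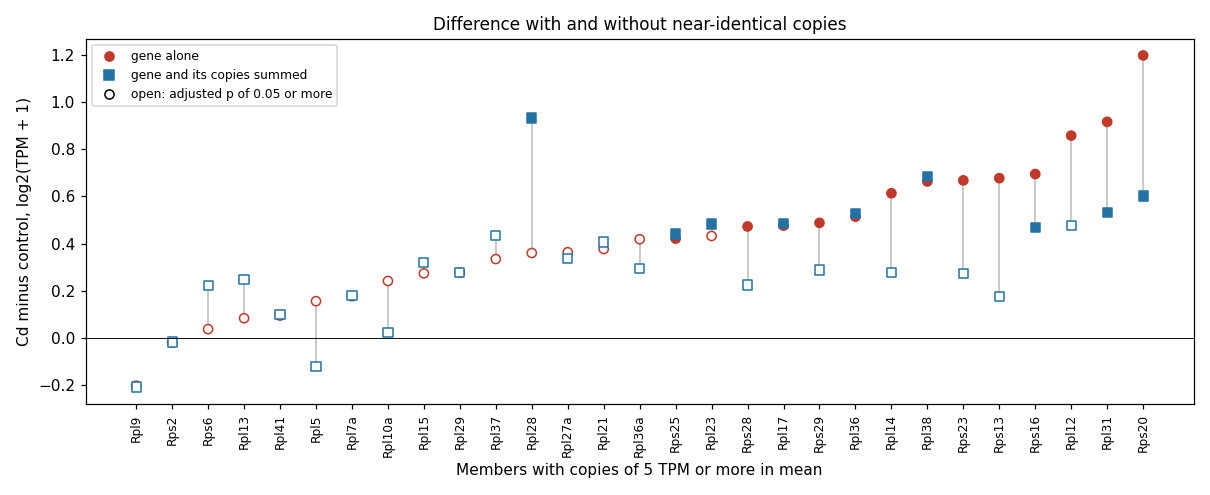
Cd minus control in log2(TPM + 1) for 29 of the 30 tested genes whose copies sum to at least 5 TPM, for the gene alone (circles) and with its copies added (squares); filled marks have an adjusted p under 0.05. Rps20 goes from 1.20 to 0.60 and Rpl28 from 0.36 to 0.93.

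Cd+Se against Cd asks what selenium changed in mice given the metal. Of the 80 genes 1 was higher, Rps3, and 1 was lower, Rps27l, where 13.6% of all genes tested were called higher and 2.35% lower. Rps3 was at 234, 235, 246 and 230 TPM in the Cd+Se group, above each of the 4 Cd values (0.78 ± 0.22, adjusted p = 0.0297, limma). Rps27l was at 444, 491, 493 and 577 TPM, below each of the 4 Cd values (-0.42 ± 0.12, adjusted p = 0.0267, limma). Both calls were lost when Cd mouse 2, or Cd+Se mouse 14 or 15, was left out, the call of Rps3 also without Cd mouse 5 or 6 or Cd+Se mouse 16, and that of Rps27l without Cd mouse 1 or Cd+Se mouse 13. With only these 2 groups in the fit 0 genes passed. The difference of Rps3 was 0.54 without Cd mouse 5 and between 0.76 and 0.79 without each of the other mice named for it.

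The median difference over the 80 genes was -0.02, against 0.17 for all genes tested. With median centring 1 gene was called higher and 23 lower, where 7.96% and 10.8% of all genes were called. The family's median was then -0.22, against -0.02 for all genes tested. The number of calls here thus depends on the scale. After Rps3 the highest differences belonged to Rplp0 (0.42 ± 0.15), Rpl3 (0.40 ± 0.19), Rpl9 (0.40 ± 0.18) and Rps4x (0.39 ± 0.17). Without Cd mouse 5 they were 0.31, 0.24, 0.22 and 0.24 in that order, whereas without Cd mouse 1 Rplp0 (0.52), Rpl9 (0.56) and Rps4x (0.53) passed. The lowest were those of Rpl31 (-0.53 ± 0.20), Rps20 (-0.51 ± 0.17), Rpl22l1 (-0.46 ± 0.27), Rps27l and Rpl38 (-0.37 ± 0.14). These are largely the genes at the ends of Cd against control, and both comparisons use the same 4 Cd mice.

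In Cd+Se against Cd 10 genes took a larger share of the family and 6 a smaller one, where 18.5% and 2.59% of all genes were called. Without Cd mouse 5 these were 5 and 3, and with copies added 11 and 3. The share of Rps3 was 0.585% to 0.754% in the Cd+Se group (0.79 ± 0.14, adjusted p = 0.00405, limma) and that of Rplp0 0.875% to 0.963% (0.43 ± 0.08, adjusted p = 0.00386, limma). Shares of Rpl31, Rps20, Rps27l, Rpl38, Rps23 and Rpl14 were the 6 lower ones. For Rpl31 and Rps20 the deposited difference shrank to -0.23 and -0.21 with copies added.

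Cd+Se against control gave 0 calls among the 80 genes by limma, with 18 at an unadjusted p under 0.05, where 0.484% of all genes were called and 10.9% reached that p. All 80 differences were above 0, with a median of 0.28 against -0.02 for all genes tested. For 19 genes the 4 Cd+Se mice lay above the 4 control mice, where this held for 3.88% of all genes. As deposited, Rps20 stood highest (0.69 ± 0.17, adjusted p = 0.0982, limma). With copies added the largest difference was 0.66, for another gene, and the 2 groups overlapped for Rps20. As deposited, Rps20 was also the 1 gene with a larger share of the family (0.43 ± 0.10, adjusted p = 0.0215, limma), where 0.671% of all genes were called higher. This call was absent once copies were added. As deposited, Rps27l was closest to the control group (0.04 ± 0.12).

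Cd+Se against Se compares mice with and without Cd on the selenium diet. It also gave 0 calls by limma, where 0.714% of all genes were called, and 1 gene at an unadjusted p under 0.05, where 10.9% reached it. The median was 0.13, against -0.03 for all genes. This comparison shares no library with Cd against control, so the members' differences were set side by side: over the 80 genes Pearson's r was 0.47 and Spearman's rho 0.51, and with copies added 0.39 and 0.44. Genes share libraries and depth and are not independent, so these values are a description. The 16 genes with a larger share in Cd against control had a median difference of 0.22 here, and the 14 with a smaller share 0.10. As deposited, Rps20 was again highest, at 0.47 ± 0.17. With copies added it was at 203 to 287 TPM in the Cd+Se group and 153 to 288 TPM in the Se group. The largest difference was then 0.52, for another gene. Rps3 (0.13 ± 0.22), Rplp0 (0.02 ± 0.15) and Rpl3 (0.03 ± 0.19) were not below 0 as deposited.

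The interaction is the difference with Cd in selenium-fed mice minus that in mice on the plain diet. It gave 0 calls by limma on the deposited scale, where 1.04% of all genes were called. At an unadjusted p under 0.05 there were 6 genes, where 21.3% of all genes reached it. Rpl12 (-0.96 ± 0.35, adjusted p = 0.137, limma) and Rps20 (-0.72 ± 0.24, adjusted p = 0.12, limma) were of largest size, and with copies added they were -0.44 ± 0.27 and -0.32 ± 0.27. As shares of the family, 7 genes passed upwards and 3 downwards, where 15% and 0.603% of all genes did. Those upwards were Rps3 (0.76 ± 0.20, adjusted p = 0.0256, limma), Rpl3, Rpl8, Rpl9, Rplp0, Rps4x and Rps21, and those downwards Rps20, Rpl31 and Rpl12. Without Cd mouse 5 the counts were 2 and 1, and with copies added 5 and 1.

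Se against control gave 0 calls among the 80 and 0 among all 11766 genes by limma, with 1 member at an unadjusted p under 0.05 where 3.86% of all genes reached it. The median was 0.15, against 0.01 for all genes. Rpl12 (0.68 ± 0.25) and Rps15a, a small-subunit protein (0.29 ± 0.25), differed most. Rpl12 was at 9.04, 21, 8.33 and 14.3 TPM in the Se group, which overlaps its control range. With copies added its difference was 0.31 ± 0.19, and without Se mouse 40 it was 0.43. That of Rps15a was 0.17 without Se mouse 44, and 0.18 without Se mouse 40 or control mouse 28.

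Other genes for proteins of the ribosome lay outside the family by name or by the annotation of the table. Rack1, the signalling scaffold of the small subunit, rose in Cd against control by 0.60 ± 0.16 (adjusted p = 0.0089, limma), and so did 2 genes that the annotation leaves out, Rpl27 (0.49 ± 0.15, adjusted p = 0.0202, limma) and Rps12 (0.73 ± 0.19, adjusted p = 0.00992, limma). Fau, which encodes a ribosomal protein fused to a ubiquitin-like part, did not pass (0.29 ± 0.16), nor did Gm11808 (0.16 ± 0.13).

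Genes that build the ribosome went the other way. Of 43 ribosome assembly and ribosomal RNA synthesis genes 0 were higher and 24 lower in Cd against control, with a median of -0.51. In that comparison 5.82% of all genes were called higher and 24.9% lower. In Cd+Se against Cd 15 of the 43 were higher and 0 lower, where 13.6% and 2.35% of all genes were called. With median centring the count in Cd against control was 3 higher and 18 lower, where 19.2% and 15.3% of all genes were called. Gar1, of the pseudouridylation particle, was at 9.73 to 16.9 TPM in the control, 3.36 to 8.48 in the Cd and 10.3 to 16.5 TPM in the Cd+Se group. Nop2, an rRNA methyltransferase, was at 8.85 to 13.9, 3.32 to 5.25 and 5.28 to 9.68 TPM in that order. Both fell in Cd against control (-1.18 ± 0.25 and -1.17 ± 0.21, limma adjusted p = 0.00305 and 0.0011).

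Among 19 translation factors and other TOP mRNA genes 2 were higher and 4 lower in Cd against control, where 5.82% and 24.9% of all genes were. With median centring these were 6 and 2, where 19.2% and 15.3% were. The 4 lower calls are thus near the share over all genes. Eef1a1, the most abundant elongation factor, was at 2955 to 3514 TPM in the control and 1803 to 3357 TPM in the Cd group and did not pass (-0.37 ± 0.18). Eef2, the translocase, fell by 0.62 on the log2 scale (adjusted p = 0.0168, limma) and was higher in Cd+Se against Cd by 0.81 ± 0.18, and Eif3l, an initiation factor subunit, fell by 0.69.

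Of 16 tested genes for mTORC1, MYC and LARP1 control, 0 were higher and 5 lower, or 5 and 5 with median centring, and the 5 lower calls on the deposited scale are near the 24.9% of all genes called lower. Larp1, which binds TOP mRNAs, fell from between 18.4 and 21.8 to between 10.1 and 15.1 TPM (-0.60 ± 0.13, adjusted p = 0.00345, limma) and was at 17.2 to 21.9 TPM in the Cd+Se group. Larp4, which protects poly(A) tails, and Deptor, an mTOR inhibitor, fell by 0.88 and 0.76. Myc stayed between 0.40 and 3.81 TPM in these 3 groups and did not pass (0.51 ± 0.42). The 4 genes of the p53 checkpoint list gave 0 calls in either direction.

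Other multi-protein machines were counted in Cd against control, where 5.82% of all genes were called higher and 24.9% lower. Mitochondrial ribosomal proteins, made in the nucleus for the organelle's own ribosome, gave 17 higher and 9 lower of 78. Mrps23 fell by 1.11 and Mrpl57 rose by 0.84 ± 0.19. Of the 39 proteasome genes 8 were higher and 7 lower, Psma3, a core subunit, by 0.66 ± 0.15 and Psme4, an activator, by -0.69 ± 0.17. Nuclear complex I genes gave 16 higher and 3 lower of 47, with Ndufab1, the acyl carrier, at 0.79 ± 0.15 and Ndufaf4, an assembly factor, at -0.56 ± 0.14. With median centring the counts were 34 and 3 for the mitochondrial ribosome, 18 and 2 for the proteasome and 32 and 2 for complex I. On that scale 19.2% of all genes were called higher and 15.3% lower.

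Within the family, counts of calls were also set beside features that the rule did not use. In Cd against control 8 of 29 genes with a small nucleolar RNA gene inside were called higher, against 17 of 51 without. The share called was larger among genes whose copies reached 5 TPM, with 14 of 30 called and a median difference of 0.42, against 11 of 50 and 0.27 among the rest. Of genes with a TOP-like run near an annotated start 7 of 22 were called, against 11 of 37 without. Transcript length and the difference had a Spearman rho of -0.14 over the 80 genes, given as a description.

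Markers of some other cells moved with the Cd group, and fewer cells of a type and less RNA per cell cannot be told apart in whole tissue. Hepatocyte markers were abundant throughout, with a summed level of 40287 to 67369 TPM in the Cd and 61325 to 83907 TPM in the control group, and 0 of 6 were higher and 1, Cps1, lower. Of 11 Kupffer cell and macrophage markers 10 were lower, summing to 227 to 276 TPM in the control and 119 to 164 TPM in the Cd group. The 3 tested neutrophil markers were all higher, and the 6 listed summed to 5.84 to 15.8 TPM in the control and 32.2 to 40.9 TPM in the Cd group, with Ly6g and Camp under 0.5 TPM. Calls were 2 of 6 for endothelium and 1 of 5 for stellate cells, all lower and near the 24.9% of all genes called lower, and 0 for erythroid and cholangiocyte markers, while the 10 lymphocyte markers were all under 1 TPM in mean. The part of these cells in the family's differences was not tested.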

How the data were processed

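Poly(A)-selected liver RNA was sequenced per the labels on an Illumina NovaSeq. The authors deposited 1 table of TPM values for 57010 genes in 16 libraries. The submitters' processing notes name fastp, HISAT2 and StringTie without versions, and the build GRCh38, although the gene identifiers are those of mouse. The strand setting is not given in the sources used here. TPM keep no depth, so depth is unknown, no count test was used and precision rests on 4 mice per group, taken from the sample titles. The titles name 2 replicates for each mouse, the table has 1 column per mouse, and how the 2 were joined is not given in the sources used here. The members and lists were chosen with earlier results of these data known.

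The 11766 genes averaging 1 TPM or more were tested with limma 3.58.1 in R 4.3.3 on log2(TPM + 1), with the 4 group means, a mean-variance trend and Benjamini-Hochberg adjustment over all genes tested. A fold change on this scale understates that of low genes. In data simulated from the gene means and spread, 179 of 200 changed genes were recovered in Cd against control among 11766 genes (84 of 100 at a log2 change of 1 and 95 of 100 at 2), with 10 false calls. The simulated noise was independent between genes, unlike the spread that the family shared. No change smaller than 1 was planted, so differences near the members' median of 0.28 are not covered. Copies were sought with blastn 2.17.0 among GENCODE M21 transcripts. A copy is often shorter than its member, so a summed TPM is approximate. Figures were drawn with matplotlib 3.10.9.

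Named genes were fixed as a set of roles, the 5 highest and 5 lowest differences in each of Cd against control and Cd+Se against Cd, the 2 of largest size in Se against control and in the interaction, the 3 highest and lowest levels, every untested member, 6 listed genes and, per list, the 2 of largest size past the threshold. Other genes named were chosen after their values were seen. Shares of the family, summed copies and 3 further settings were also chosen after seeing the data. Some genes are not reported here by name or in the plots of single genes, but stay in every fit and count.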

Additional observations from a re-analysis of the deposited data

Results flagged for a closer look

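Within groups of 4 mice, 1 value lay far from the remaining 3 (Dixon's test, 95% level) in 5 of 100 groups looked at, over the named genes and the family's sum, and chance alone flags about 1 in 20, or 5. Of these, 3 concerned Rpl22l1: control mouse 27 at 172 TPM against 62.5 to 72.6 TPM (gap over range 0.907), Cd+Se mouse 13 at 185 TPM against 107 to 116 TPM (0.887), and Se mouse 41 at 74.5 TPM against 106 to 111 TPM (0.853). Rpl5 was at 16.7 TPM in control mouse 27 against 20.9 to 21.4 TPM (0.877), and Rps27l at 457 TPM in control mouse 28 against 493 to 500 TPM (0.854).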

How the results depend on the processing

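Each count and median was recomputed under 31 other settings, 5 of them chosen after seeing the data, with 30 for the interaction. Members called in Cd against control numbered 15 with no filter on low values, 39 with quantile normalization, 65 with median centring and 42 when rescaled to other nuclear protein-coding genes. Of all genes, 14.5% were called higher and 19.3% lower with quantile normalization, and 19.2% and 15.3% with median centring. A change of setting thus also changes the calls over all genes. Counts without such a share, here or above, show only how the members' calls depend on the setting. In Cd+Se against Cd, called members numbered 1 with no filter, 10 with quantile normalization, 24 with median centring, 7 when rescaled to other nuclear protein-coding genes, 0 with only the groups compared, 11 with the length and GC correction and 6 when rescaled without mitochondrial transcripts. As shares of the family they were 16, with copies summed 14, and without Cd mouse 5 they were 8. In Cd+Se against control 1 member was called with quantile normalization, median centring, the length and GC correction and shares of the family, with or without Cd mouse 5. The interaction gave 3, 13, 1 and 1 calls with quantile normalization, median centring, rescaling to other nuclear protein-coding genes and the length and GC correction, and 10 as shares, 6 with copies summed and 3 without Cd mouse 5. With median centring the medians went from 0.28 to 0.50 in Cd against control, from -0.02 to -0.22 in Cd+Se against Cd and from -0.19 to -0.37 for the interaction. Medians moved by more than 0.22, the pooled within-group SD of the median level of the members, only as shares, to 0.012, 0.0023 with copies and 0.036 without Cd mouse 5 in Cd against control, and to 0.019, 0.010 and 0.019 in Cd+Se against control. Shares hold the family's total equal in every library, so medians near 0 follow from that scale itself.

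Leaving out 1 mouse at a time gave 13 to 31 calls and medians of 0.19 to 0.41 in Cd against control. It gave 0 to 5 calls and medians of -0.13 to 0.08 in Cd+Se against Cd, where 5 were called without Cd mouse 1 and 4 without Se mouse 40. It gave 0 calls in the other comparisons, with medians of 0.23 to 0.33 in Cd+Se against control, 0.05 to 0.24 in Cd+Se against Se, 0.04 to 0.22 in Se against control and -0.31 to -0.07 for the interaction.

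As shares of the family, 34 of the 80 differences in Cd against control were below 0, against 11 as deposited. On the other settings, signs of the named genes turned in Cd against control only for differences that had not passed. Under quantile normalization these were Rpl23a (-0.0057), Rps27rt (0.084) and Rps6 (-0.00029), with median centring Rpl9 (0.018), Rps27rt (0.18) and Rps4x (0.029), and with other nuclear protein-coding genes Rps27rt (0.011). With the length and GC correction they were Rpl23a (-0.016), Rpl9 (0.0094), Rps15 (-0.067), Rps27 (-0.0074) and Rps6 (-0.047), and with copies summed Rpl5 (-0.12). Leaving out 1 mouse turned Rps27rt (range -0.19 to 0.087) and Rps6 (range -0.11 to 0.18). The cause was not tested. No paired analysis was possible because no 2 groups share a mouse number. Precision is limited by 4 mice per group, and the depth of each library is unknown.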
